A study of Mus musculus with 10 samples.

Results

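The genes described here make, take up, store and export cholesterol. They were chosen by symbol from the deposited expression table: 32 genes of 17274 listed, in 6 roles. All 32 were found, and all 32 passed the filter on low values that left 12053 genes to test. Expression was measured by RNA-seq in 10 liver samples from wild-type (WT) mice, all fed CDAHFD, a diet that lacks choline, is rich in fat and supplies amino acids in defined form, and so produces nonalcoholic steatohepatitis (NASH). In 5 samples the mice had received control AAV (adeno-associated virus, a gene delivery vector) by vein, and in the other 5 AAV-miR-181d-5p, which encodes the microRNA miR-181d-5p. The labels do not state the promoter of the vectors, the dose, the time of harvest or the age of the mice, and the level of the microRNA itself was not analysed here. Livers are numbered but not tied to named animals, and a p-value therefore measures only the spread between these libraries, which may be technical.

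Cells build cholesterol from acetyl-CoA through mevalonate, farnesyl pyrophosphate and squalene, and close squalene into the sterol rings. When membranes of the endoplasmic reticulum are short of sterol, Scap carries the transcription factor SREBP-2, the product of Srebf2, to the Golgi, where it is cut and freed to switch on the synthesis enzymes. Insig proteins hold Scap back when sterol is plentiful. The liver also takes cholesterol from lipoproteins, stores it as esters, and exports it to HDL or bile, and oxysterols acting through the LXR receptors raise the exporters.

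Sequences bear on the genes in 2 ways, through the microRNA delivered and through the promoters. The mature microRNA, from RefSeq (GRCm38.p6, chr8:84178759-84178781, reverse strand), is shown because its seed, bases 2 to 8 and in capitals, defines the matches searched for.
mmu-miR-181d-5p: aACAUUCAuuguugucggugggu
In the longest annotated 3' UTR of each gene, 5 of the 32 genes held a match to the seed (TGAATGTA as an 8mer, TGAATGT as a 7mer-m8, GAATGTA as a 7mer-A1), against 23.0% of 11770 tested genes with a 3' UTR. The median 3' UTR was 1099 bases in the 32 genes and 1114 in the tested genes. The matches lay in Fdft1 (chr14:63145498-63145505, reverse strand), Nsdhl (chrX:72958003-72958010, forward), Hsd17b7 (chr1:169952495-169952501 and chr1:169949588-169949595, reverse), Insig2 (chr1:121305201-121305207, reverse) and Npc2 (chr12:84755294-84755300, reverse), all on mm10 with GENCODE vM21. They are shown in that order, with the match in capitals, since these are the genes among the 32 that the microRNA could pair with by this rule.
Fdft1 8mer: cagccttcTGAATGTAcgagttat
Nsdhl 8mer: agtattgaTGAATGTAatccccaa
Hsd17b7 7mer-m8: gaaaggtgTGAATGTgtttgggc
Hsd17b7 8mer: gctcttgaTGAATGTAtgaacagt
Insig2 7mer-m8: tgtttagaTGAATGTgcttggga
Npc2 7mer-m8: ttcagctgTGAATGTgagctgta
Of these 5 genes 4 had a higher mean level in miR-181d-5p livers, at 104.7% of the control mean for Fdft1, 107.9% for Nsdhl, 102.0% for Hsd17b7 and 109.4% for Insig2. Npc2 stood at 81.9%. By median, Nsdhl was lower in miR-181d-5p livers (5.99 against 6.44 FPKM in controls), as was Hsd17b7 (4.33 against 4.73 FPKM). The medians of Fdft1 (6.59 against 6.38 FPKM) and Insig2 (34.2 against 28.4 FPKM) were higher, and that of Npc2 lower. None passed the adjusted test.

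The promoter of Hmgcs1, which encodes the synthase that feeds the mevalonate pathway, was the 1 member promoter with the sterol regulatory element searched for. RefSeq windows of 300 bases were found for 25 of the 32 genes. None was found for Fdps, Fdft1, Sqle, Npc1, Stard4, Scarb1 and Soat2, so their promoters were not searched. Both strands were searched for TCACNCCAC, a form of the element that SREBP binds, and for ATTGG, the inverted CCAAT box of the factor NF-Y, which works with SREBP. The element was in 1.24% of all 32851 promoter windows. ATTGG was in 37.4% of all windows and in 22 of the 32 windows of the members (68.8%), which covered 22 of the 25 genes. The genes with no ATTGG in the window were Abca1, Acat2 and Scap. These are letter matches, not measured binding. The Hmgcs1 window (GRCm38.p6, chr13:119690101-119690400, forward strand) carries 1 TCACNCCAC and 4 ATTGG, in capitals, which do not overlap each other.
Hmgcs1 promoter: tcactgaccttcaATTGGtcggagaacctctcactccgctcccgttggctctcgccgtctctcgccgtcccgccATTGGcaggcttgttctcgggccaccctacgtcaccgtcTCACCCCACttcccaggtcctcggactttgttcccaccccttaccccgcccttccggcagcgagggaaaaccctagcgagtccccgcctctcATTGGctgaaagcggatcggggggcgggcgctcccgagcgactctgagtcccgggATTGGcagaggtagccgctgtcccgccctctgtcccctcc

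No gene of the set differed between the groups after adjustment. By limma on log2(FPKM + 1) values (FPKM, fragments scaled to gene length and library size), 0 of 32 members had an adjusted p under 0.05, and 0% of the 12053 genes tested did; voom on recovered reads also called 0 genes. The lowest adjusted p of a member was 0.25, for Acat2 and Sc5d. At an unadjusted p under 0.05, 3 members were higher in miR-181d-5p livers (Acat2, Ebp and Sc5d), where 5.04% of all genes were. By the same threshold 1 member was lower (Npc2), where 9.63% of all genes were. After quantile normalization 997 of all genes were higher and 942 lower at that threshold, in place of 607 and 1161. The mean log2 change was above 0 in 24 of the 32 members and below 0 in 8, while over all genes tested 45.5% were above and 54.5% below. The median log2 change was 0.07 over the members and -0.02 over all genes. Among the 18 synthesis enzymes 15 were above 0 (median 0.07), and among the other 14 members 9 were (median 0.08). Single livers moved the median of the 32 members, to 0.04 without treated liver 2, 0.11 without treated liver 5, and 0.12 without control liver 5 or treated liver 4. The count of members higher at an unadjusted p under 0.05 was 7 without control liver 1 (662 of all genes), 6 without control liver 4 (695) and 5 without treated liver 5 (695), in place of 3 (607). The groups did not overlap in 1 member, Mylip, which was lower. Of all genes tested, 1.45% were lower and 1.02% higher without overlap.

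**Figure D1:**
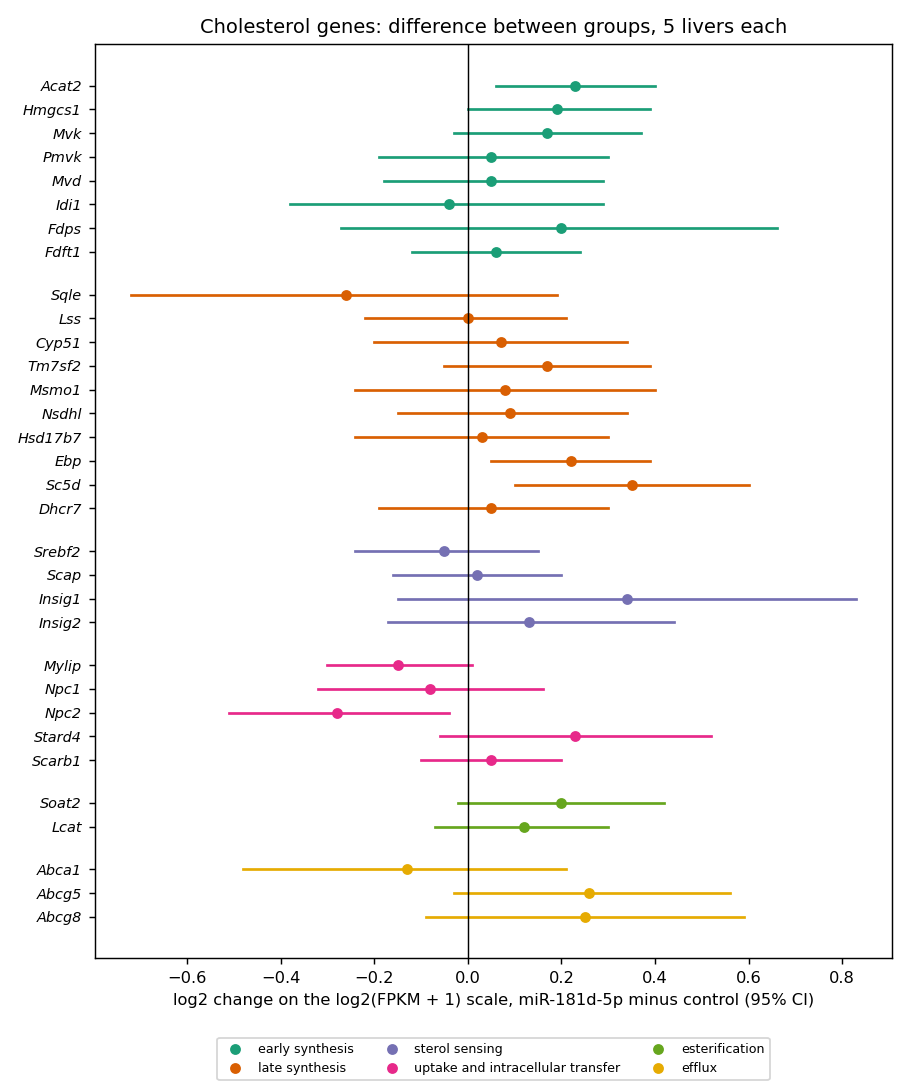
Log2 change of each of the 32 genes, miR-181d-5p minus control, on the log2(FPKM + 1) scale (points) with limma's 95% confidence interval (lines), coloured by role; n = 5 livers per group. The intervals of Acat2, Ebp, Sc5d and Npc2 lie to one side of 0, and those of the other 28 genes reach or cross it.

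Each liver library held 18985912 to 20657019 gene-assigned reads, recovered from the FPKM. A member had a median of 906 reads per liver, from 74 (Idi1) to 6873 (Abca1). Alb, the hepatocyte marker, stood between 20759 and 24746 FPKM in the 10 livers, as the liver label implies. In bulk tissue, fewer cells of a type and less RNA per cell cannot be told apart. Most markers of other cell types had lower means in miR-181d-5p livers. Of 10 macrophage markers 9 had a log2 change below 0, and their summed level was 2356 to 3256 FPKM in controls and 1686 to 2948 in miR-181d-5p livers. All 10 stellate cell and fibroblast markers were below 0 (489 to 675 against 370 to 493 FPKM), as were all 8 tested cholangiocyte markers (278 to 517 against 118 to 379). Endothelial markers were below 0 in 6 of 10 (209 to 243 against 208 to 223 FPKM). Hepatocyte markers were above 0 in 8 of 10, with sums of 28216 to 32910 FPKM in controls and 29720 to 33789 in miR-181d-5p livers. Single genes weighed heavily in some of these sums. By control mean, Spp1 made up 329 of 374 FPKM of the cholangiocyte sum. Lyz2 made up 1456 of 2731 FPKM for macrophages and Alb 22375 of 30737 FPKM for hepatocytes. The median log2 change of the hepatocyte markers was 0.07, equal to that of the synthesis enzymes. The part of cell makeup in the values that follow was not tested.

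The first 8 enzymes run from acetyl-CoA to squalene, and 7 of the 8 had a log2 change above 0, with a median of 0.12 (0.07 without control liver 3). Acat2 (mm10, chr17:12942890-12960747), the cytosolic thiolase that joins acetyl-CoA units (and not the sterol acyltransferase once called by the same name, here Soat2), stood at 14.3, 14.8, 13.3, 14.3 and 16.5 FPKM in control livers 1 to 5. In miR-181d-5p livers 1 to 5 it stood at 15.9, 17.8, 19.0, 18.4 and 15.8 FPKM. Only control liver 5 reached into the range of the treated livers. The means were 14.6 ± 1.19 and 17.4 ± 1.44 FPKM (SD, n = 5 each), a log2 change of 0.23 (SE 0.08, adjusted p = 0.25). By the two-sided exact permutation test of this gene alone, p was 0.0238 before any adjustment. Reads of its near-identical relatives may be split by the authors' counting, so the level is uncertain.

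Hmgcs1 was at 18.4, 18.4, 16.4, 23.0 and 18.1 FPKM in controls and at 23.0, 20.6, 24.4, 20.3 and 20 FPKM in miR-181d-5p livers. Control liver 4 stood among the treated livers, and the other 4 controls lay below them. The log2 change was 0.19 (95% CI -0.00 to 0.39, adjusted p = 0.341). Mvk, mevalonate kinase, was at 6.69, 7.21, 6.46, 6.92 and 7.63 FPKM in controls and at 8.19, 7.98, 9.43, 8.36 and 6.23 FPKM in miR-181d-5p livers. Here 4 treated livers lay above every control and liver 5 lay below every control, and the log2 change was 0.17 (SE 0.09, adjusted p = 0.407).

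The 5 enzymes that follow Mvk showed smaller differences or wider spread. Pmvk, which adds the next phosphate, and Mvd, which decarboxylates the product, had means of 3.84 and 3.67 FPKM in controls against 3.97 and 3.87 FPKM in miR-181d-5p livers. Idi1, the isomerase of the isoprene unit, was at 2.46 ± 0.432 against 2.42 ± 0.843 FPKM (SD, n = 5 each). Fdps, which makes farnesyl pyrophosphate, ran from 16.8 to 39.1 FPKM in controls and from 19.9 to 37.7 FPKM in treated livers. Its groups covered nearly the same range, so its log2 change of 0.20 had a 95% CI of -0.27 to 0.66. Fdft1, squalene synthase, ran from 5.66 to 7.49 FPKM in controls and from 6.02 to 7.23 FPKM in treated livers. Annotated exons of Fdft1 and Ctsb, on opposite strands, share 774 bases, and the sources used here do not say whether reads were counted by strand.

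The 10 enzymes from squalene to cholesterol had a median log2 change of 0.07, with 8 above 0. That median was 0.02, 0.03 or 0.04 without treated liver 3, control liver 3 or treated liver 2, and 0.13, 0.13 or 0.12 without control liver 5, treated liver 4 or treated liver 5. The pair with the smallest p was also the pair with the highest level, by FPKM, of the 10. Sc5d (chr9:42251595-42264256), the desaturase that acts just before Dhcr7, stood at 46.7, 31.6, 34.5, 44.9 and 44.3 FPKM in controls. In miR-181d-5p livers it stood at 52.3, 54.9, 56.7, 50.4 and 42.7 FPKM. Livers 1 to 4 of the treated group were above every control, and liver 5 was among the controls. Its means were 40.4 ± 6.86 and 51.4 ± 5.43 FPKM (SD, n = 5 each), 127.2% of control, a log2 change of 0.35 (SE 0.12, adjusted p = 0.25, exact permutation p = 0.0317 before adjustment).

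Ebp (chrX:8185329-8193512), the sterol isomerase that acts just before Sc5d, had the same arrangement. It was at 53.7, 46.8, 55.2, 57.5 and 61.8 FPKM in controls and at 63.5, 66.9, 66.3, 65.3 and 57.4 FPKM in treated livers, so that liver 5 again was the treated liver among the controls. The log2 change was 0.22 (SE 0.08, adjusted p = 0.266) and was 0.13 without control livers 1 and 2, where the adjusted p was 0.372 (0.152 to 0.534 over the 21 alternatives). Tm7sf2, a sterol reductase, was at 6.99, 6.05, 6.05, 7.75 and 7.12 FPKM in controls and at 6.51, 8.71, 9.37, 7.45 and 7.01 FPKM in treated livers. The groups overlapped, and the log2 change of 0.17 (adjusted p = 0.437) was 0.11 without miR-181d-5p liver 3. Tm7sf2 shares 532 exon bases with Vps51 on the same strand.

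Sqle, squalene epoxidase and one of the slow steps of the pathway, had the lowest log2 change of the 18 enzymes, -0.26 (95% CI -0.72 to 0.19, adjusted p = 0.566). It ran from 2.06 to 4.46 FPKM in controls and from 1.55 to 4.95 FPKM in treated livers, so the treated group held both the lowest and the highest liver. The highest was treated liver 3, and without it the log2 change was -0.44 (unadjusted p by limma 0.0281, adjusted p = 0.328). In that fit Sqle and Npc2 were the members lower at an unadjusted p under 0.05, as were 1212 of all 12053 genes. Without treated liver 4 the log2 change of Sqle was -0.13 and without control liver 3 it was -0.39. Its adjusted p ran from 0.328 to 0.841 over the 21 alternatives. Lss, which closes the rings, was at 2.97 ± 0.50 against 2.95 ± 0.371 FPKM. The enzymes that strip methyl groups from the first sterol were Cyp51, Msmo1, Nsdhl and Hsd17b7, and they stood at 102.0% to 107.9% of the control mean. Dhcr7, the last reductase, was at 7.32 ± 0.815 against 7.69 ± 1.39 FPKM (SD, n = 5 each).

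**Figure D2:**
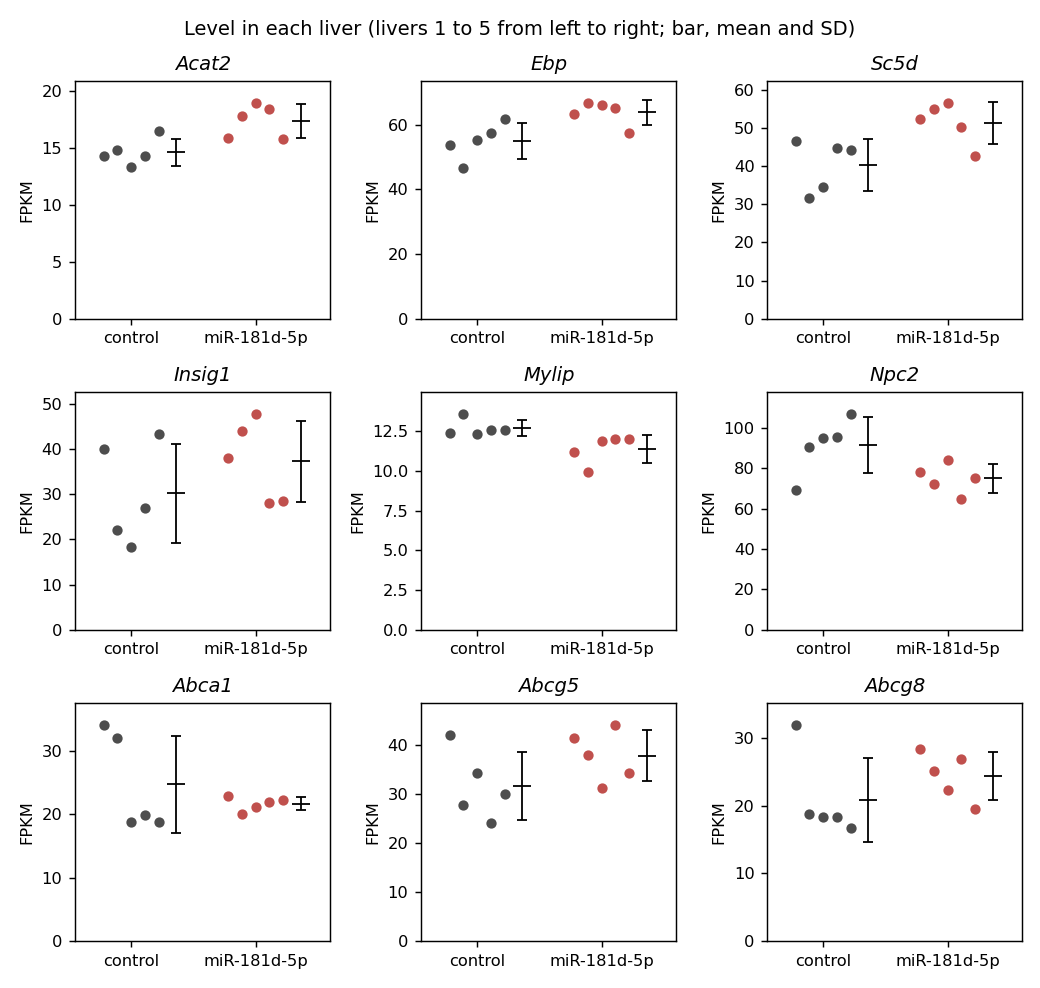
FPKM in each liver (points, livers 1 to 5 from left to right; grey control, red miR-181d-5p) of 9 genes, with the mean and SD of each group beside the points. Mylip is the 1 gene whose groups do not overlap, and in Abca1 control livers 1 and 2, at 34.1 and 32.0 FPKM, stand above the other 8.

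Many of the enzymes shared their high and low livers, in both groups. Relative to the mean of the controls, the mean log2 level of the 18 enzymes was -0.03, -0.03, -0.17, 0.08 and 0.16 in control livers 1 to 5, and 0.09, 0.19, 0.31, -0.03 and -0.08 in miR-181d-5p livers 1 to 5. Control liver 3 was the lowest control for 12 of the 18 enzymes and control liver 5 the highest for 9. In the treated group liver 3 was the highest for 14 enzymes and liver 5 the lowest for 11. Treated livers 1, 4 and 5 thus lay within the range of the controls. Exceptions included Hsd17b7, which was at its lowest control level, 3.53 FPKM, in control liver 5 and at 4.05 FPKM in treated liver 3. Fdft1 was another, with its lowest treated level, 6.02 FPKM, in treated liver 3 and 6.61 FPKM in control liver 3. Within groups the widest range among controls was that of Insig1, 2.36-fold from lowest to highest, then Fdps (2.33-fold) and Sqle (2.16-fold), and the narrowest was that of Mylip (1.11-fold). The median SD of log2 levels was 0.18 in controls and 0.19 in treated livers for the enzymes, against 0.17 and 0.11 over all genes tested. Without treated liver 3 the log2 change was above 0 in 12 of the 18 enzymes, and without treated liver 4 in 17.

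**Figure D3:**
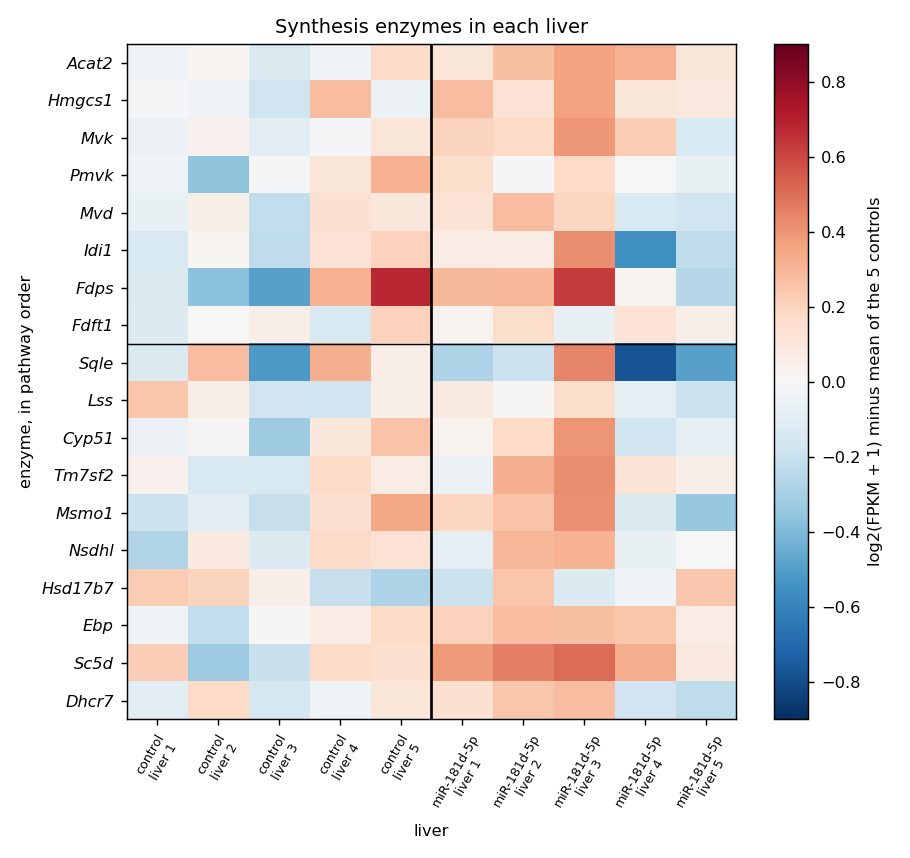
Level of each synthesis enzyme (rows, in pathway order, with a line before Sqle) in each liver (columns, with a line between the groups), as log2(FPKM + 1) minus the mean of the 5 controls; red is higher and blue lower. Control liver 3 and miR-181d-5p liver 5 are low and control liver 5 and miR-181d-5p liver 3 high across most rows.

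The sterol sensing genes did not separate the groups. Srebf2 was at 12.6, 12.5, 9.46, 10.7 and 10.5 FPKM in controls and at 10.6, 10.8, 12.4, 9.60 and 10.3 FPKM in treated livers. The ranges were nearly the same, and the log2 change of -0.05 had a 95% CI of -0.24 to 0.15 (adjusted p = 0.83). Its sign turned to 0.01 with a gene length trend removed and to 0.06 without control livers 1 and 2. Scap, at 20.4 ± 2.52 against 20.6 ± 0.756 FPKM (SD, n = 5 each), had a 95% CI of -0.16 to 0.20.

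Insig1, itself a target of SREBP-2 and so a common readout of its activity, was at 40.1, 22.1, 18.4, 27.0 and 43.3 FPKM in controls. In treated livers it was at 38.1, 43.9, 47.8, 28.1 and 28.4 FPKM. Its lowest control was liver 3 and its highest treated liver was liver 3, as for most enzymes. The log2 change was 0.34 (SE 0.23, adjusted p = 0.49), and 0.18 without control liver 3. Insig2, the isoform that is abundant in liver and less tied to SREBP, was at 28.4, 29.9, 28.3, 42.1 and 24.5 FPKM in controls and at 36.8, 25.2, 38.5, 34.2 and 32.8 FPKM in treated livers. Control liver 4 was the highest of all 10. The log2 change of 0.13 (adjusted p = 0.66) was 0.25 without control liver 4, 0.06 without control liver 5, 0.23 without treated liver 2 and 0.08 without treated liver 3.

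The genes of uptake and transfer inside the cell held the 2 members with the smallest p among those lower in treated livers. Npc2 (chr12:84754562-84773152), the soluble protein that takes cholesterol from lipoprotein particles in the lysosome, was at 69.1, 90.6, 95.2, 95.6 and 107 FPKM in controls. In treated livers it was at 78.4, 72.1, 84.3, 64.9 and 75.0 FPKM. Control liver 1 lay among the treated livers, and the other 4 controls lay above all of them. The means were 91.5 ± 13.9 and 75.0 ± 7.24 FPKM (SD, n = 5 each), 81.9% of control, a log2 change of -0.28 (SE 0.11, adjusted p = 0.30, exact permutation p = 0.0714 before adjustment). Without control liver 1 the change was -0.37 (adjusted p = 0.109). That was the lowest adjusted p of any member under the 21 alternatives, over which that of Npc2 reached 0.579. Without control liver 3, 4 or 5, or treated liver 2 or 4, its unadjusted p was 0.05 or above. Npc2 is also expressed in macrophages, most of whose markers had lower means in the treated livers, as given above. The part of macrophages in the Npc2 level was not tested.

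Mylip (Idol, chr13:45389742-45412022), an LXR-induced ubiquitin ligase that sends lipoprotein receptors to the lysosome, was at 12.4, 13.6, 12.3, 12.6 and 12.6 FPKM in controls and at 11.2, 9.94, 11.9, 12.0 and 12.0 FPKM in treated livers. Every treated liver lay below every control, but the gap from 12.0 to 12.3 FPKM was narrow beside the counting error of 4.03% at the lowest read number of the gene (617). The mean was 89.8% of control and the log2 change -0.15 (SE 0.07, adjusted p = 0.356). The exact permutation p of 0.00794 is the smallest that 10 livers in 2 groups of 5 can give, and it was not adjusted for the number of genes.

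Stard4, a sterol carrier between membranes and a known SREBP target, was at 8.91, 6.37, 4.67, 5.81 and 7.57 FPKM in controls and at 8.0, 9.04, 8.12, 7.10 and 6.98 FPKM in treated livers. The lowest was control liver 3, and its log2 change of 0.23 (adjusted p = 0.431) was 0.13 without that liver. Npc1, the membrane partner of Npc2, was at 33.8 ± 6.55 against 31.6 ± 2.01 FPKM. It shares 511 exon bases with Rmc1 on the opposite strand. Scarb1, the HDL receptor, was at 67.8 ± 4.70 against 70.3 ± 4.19 FPKM, with a 95% CI of the log2 change of -0.10 to 0.20. The median log2 change of the 5 genes was -0.08, and it was 0.02 without control liver 1 and -0.14 without control liver 5.

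The esterifying enzymes had higher means in treated livers. Soat2, which makes cholesteryl esters inside hepatocytes, was at 23.9, 15.9, 20.8, 23.3 and 20.2 FPKM in controls and at 24.6, 21, 26.1, 22.8 and 24.7 FPKM in treated livers. The groups overlapped, with control liver 2 the lowest. The log2 change of 0.20 (adjusted p = 0.385) was 0.11 without it. Lcat, which hepatocytes secrete to esterify cholesterol on HDL, was at 159, 172, 189, 162 and 164 FPKM in controls and at 164, 175, 167, 208 and 205 FPKM in treated livers. Only treated livers 4 and 5 exceeded the controls. The log2 change of 0.12 (adjusted p = 0.518) was 0.07 without treated liver 4.

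The exporters listed were the canalicular pair and Abca1. Abcg5 and Abcg8 form the half-transporters of 1 pump that moves sterol into bile, and they are encoded head to head on chromosome 17, sharing 82 exon bases on opposite strands. Abcg5 was at 42.1, 27.8, 34.4, 24.2 and 30.1 FPKM in controls and at 41.6, 38.0, 31.2, 44.2 and 34.4 FPKM in treated livers. Abcg8 was at 32.0, 18.8, 18.4, 18.4 and 16.7 FPKM in controls and at 28.4, 25.1, 22.3, 27.0 and 19.6 FPKM in treated livers. In both genes control liver 1 was the highest control, and for Abcg8 the other 4 controls lay below every treated liver. The log2 change was 0.26 (SE 0.14, adjusted p = 0.381) for Abcg5 and 0.25 (SE 0.16, adjusted p = 0.457) for Abcg8. Without control liver 1 that of Abcg8 was 0.41 (adjusted p = 0.122, and up to 0.695 over the 21 alternatives).

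Abca1 (chr4:53030787-53159895), which loads cholesterol onto apolipoprotein A-I to start HDL, was at 34.1, 32.0, 18.7, 19.9 and 18.8 FPKM in controls and at 22.9, 20.1, 21.2, 22 and 22.2 FPKM in treated livers. Control livers 1 and 2 stood far above the other 8, and every treated liver was above the remaining 3 controls. The log2 change of -0.13 (95% CI -0.48 to 0.21, adjusted p = 0.715) turned to 0.17 without those 2 controls (adjusted p = 0.233, and up to 0.988 over the 21 alternatives). The same 2 livers were high in long genes. Lrp1, a large endocytic receptor named after its values were seen, stood at 81.6 and 89.9 FPKM in them and at 44.7 to 54.1 FPKM in the other 8. The recovered length was 10428 bases for Abca1 and 14943 for Lrp1. The median log2 level of 1718 tested genes of at least 7000 bases was 0.15 and 0.19 above the control mean in control livers 1 and 2, and between -0.22 and 0.00 in the other 8. With a length trend removed from each liver the log2 change of Abca1 was -0.03. Whether library quality or biology set these livers apart was not tested.

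**Figure D4:**
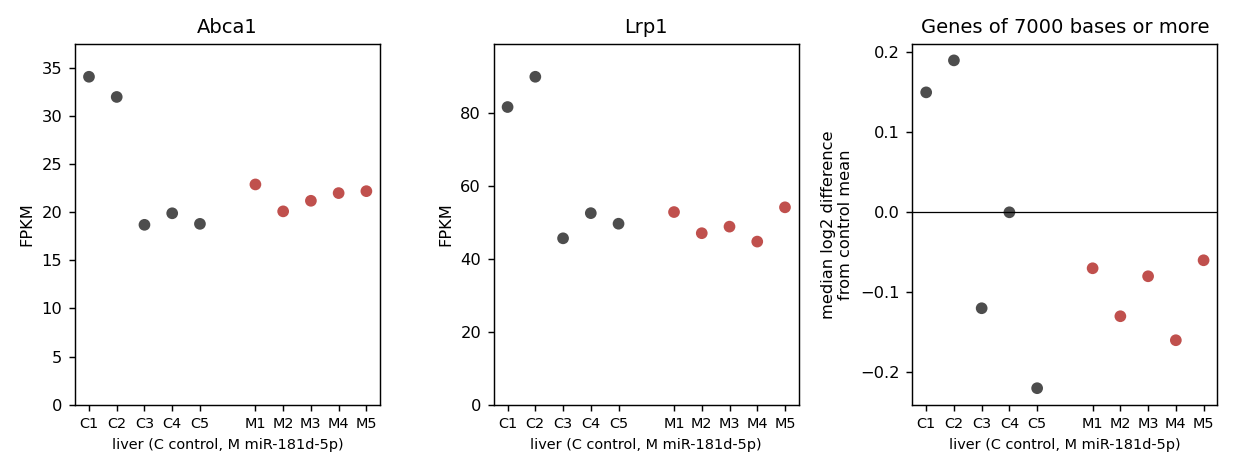
Abca1 (left) and Lrp1 (middle) in FPKM, and the median log2 difference from the control mean of 1718 genes of at least 7000 bases (right), in each liver; C1 to C5 are control livers (grey) and M1 to M5 miR-181d-5p livers (red). Control livers 1 and 2 are the highest in all panels.

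Other genes of the pathway, 50 tested of 51 listed, held 0 with an adjusted p under 0.05. Their log2 change was above 0 in 27 and below 0 in 23, with a median of 0.01, and 7 were higher and 2 lower at an unadjusted p under 0.05, thresholds that 5.04% and 9.63% of all genes passed. Of the 12 precursor and partner genes of synthesis, Cyb5b, a cytochrome b5, was at 59.7 ± 7.0 FPKM in controls and 69.6 ± 4.41 in treated livers (SD, n = 5 each; adjusted p = 0.276). Dhdds, which branches off to dolichol, was at 12.7 ± 1.43 and 14.8 ± 1.77 FPKM (adjusted p = 0.345). Of the 11 genes that process or degrade sterol sensors, Aup1, a lipid droplet protein that takes part in degradation at the endoplasmic reticulum, was at 93.8 ± 3.23 and 103 ± 1.28 FPKM. Its groups did not overlap, and its adjusted p was 0.304. It was the 1 gene of the 50 without overlap, where 1.02% of all genes were higher and 1.45% lower without overlap. Rnf145, an LXR-induced ubiquitin ligase, was at 16.0 ± 3.64 and 19.4 ± 2.18 FPKM (adjusted p = 0.365).

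Of 16 tested genes of other uptake and transfer, Gramd1c, which encodes a sterol transfer protein at membrane contacts, was at 5.63 ± 1.65 FPKM in controls and 8.42 ± 1.89 in treated livers (SD, n = 5 each), a log2 change of 0.52 (SE 0.17, adjusted p = 0.25). Soat1, the esterifying enzyme of macrophages, was at 12.2 ± 1.12 and 9.64 ± 1.66 FPKM, a log2 change of -0.33 (SE 0.11, adjusted p = 0.253). Soat2, the hepatocyte enzyme, had a log2 change of 0.20, the other sign. Abcg1, an exporter to HDL with high expression in macrophages, was at 15.0 ± 1.55 and 12.6 ± 1.23 FPKM (adjusted p = 0.276). The part of the lower macrophage markers in Soat1 and Abcg1 was not tested. Lipc, hepatic lipase, was at 31.0 ± 2.38 and 35.5 ± 3.53 FPKM (adjusted p = 0.312). Nr1h3 and Nr1h2, which encode the LXR receptors and are named outside the rule with their values known, stood at 101.4% and 103.0% of the control mean.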

How the data were processed

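Per the labels' protocols, the mirVana kit served to isolate liver RNA and the TruSeq Stranded mRNA kit to prepare libraries. The authors deposited FPKM by gene symbol, 1 column per liver. The submitters' processing notes name DESeq2 1.18.1 and R 3.4.1, HISAT2 2.2.1 and HTSeq 0.13.5, Trimmomatic 0.38 and FastQC 0.11.9, and mm10, with no role stated. The FPKM formula and strand setting are not given in the sources used here.

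Genes that averaged 0.5 FPKM or more over the 10 livers were fitted as log2(FPKM + 1) with limma 3.58.1 in R 4.3.3 (eBayes with a trend, group only), two-sided, with Benjamini-Hochberg adjustment over all 12053 genes. Log2 changes understate those of low genes. Whole reads were recovered for all 17274 genes, within 0.02 of a read, as FPKM times the smallest fitting gene length and library total. Both steps were tested on simulated data. Between livers of a group the chi-square of reads per degree of freedom was 9.51 or more, beyond counting noise alone. It cannot tell whether separate libraries came from the same animal. Members, roles and lists were chosen with earlier results of these data known. Values in every liver are given for the 3 members of each role with the smallest p, any without overlap, and Srebf2, Insig1 and Abca1; of each other list the 2 genes with the smallest p are named. Single genes were also tested by exact permutation over 252 labellings. Alternatives were other pseudocounts, filters, scalings and weights, voom, a replicate block and leaving out livers. Removing a gene length trend (lowess, span 0.3) and leaving out control livers 1 and 2 together were chosen after seeing the data. Python 3.11.15 was used for the rest.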

Additional observations from a re-analysis of the deposited data

Results flagged for a closer look

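In 80 groups of 5 livers (the 32 members and 8 other named genes), 2 held a value set apart from the rest, by a rule that chance meets in about 1 in 20 groups. Abcg8 stood at 32.0 FPKM in control liver 1, where the next control was at 18.8 FPKM. Mylip stood at 13.6 FPKM in control liver 2, where the next control was at 12.6 FPKM.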

How the results depend on the processing

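No member passed the adjusted test under any of 21 alternatives, and the lowest adjusted p of a member was 0.109. The number of genes called over all genes, 0 by limma (with 1768 at an unadjusted p under 0.05), was 1 with the replicate block, 0 to 3 when 1 liver was left out and 7 without control livers 1 and 2; voom called 0. Members higher at an unadjusted p under 0.05, 3 as reported, were 5 after quantile normalization, 6 with array weights, 5 with a gene length trend removed, 6 without control livers 1 and 2, and 3 to 7 when 1 liver was left out. The genes higher among all tested, 607 as reported, were 997, 645, 911, 755 and 372 to 793 in the same fits. Members lower, 1 as reported, were 2 with no filter on low values and 0 to 2 when 1 liver was left out, where all genes lower, 1161 as reported, were 1424 and 674 to 1794. The median log2 change of uptake and transfer, -0.08, was -0.02 with a length trend removed, 0.07 without control livers 1 and 2, and -0.14 to 0.02 when 1 liver was left out. When 1 liver was left out the other role medians ran from 0.07 to 0.17 (early synthesis, 0.12 as reported), 0.02 to 0.13 (late synthesis, 0.07), 0.01 to 0.13 (sterol sensing, 0.08), 0.12 to 0.19 (esterification, 0.16) and 0.18 to 0.37 (efflux, 0.25). The SD over the 5 controls of the median log2 deviation of each role was 0.14, 0.12, 0.14, 0.10 and 0.32 in that order. Of 17 members with values in every liver, 15 kept their direction under all alternatives; Srebf2 turned to 0.01 (length trend removed) and 0.06 (controls 1 and 2 left out), and Abca1 to 0.17 (controls 1 and 2 left out). Over all genes the share below 0, 54.5%, was 45.8% after quantile normalization, with 997 higher and 942 lower at an unadjusted p under 0.05 against 607 and 1161, and 347 and 1266 with FPKM rescaled to a common sum. Deviations of same-numbered livers correlated at -0.28 to 0.01, so no pairing by replicate number was seen. The labels do not say whether the numbers mark a pair or a batch. With the block 4 members were higher and 1 lower at an unadjusted p under 0.05, as were 384 and 836 of all genes. Low read numbers limit Idi1, Sqle and Mvd most.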
